A study of Mus musculus with 18 samples.

Results

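Axon regeneration-associated genes are genes that sensory neurons switch on after their axon is cut and that accompany or promote its regrowth. The 7 described here are Sprr1a, Ecel1, Gap43, Stmn2, Atf3, Sox11 and Klf6. They were taken as the array probes whose RefSeq accession maps to these symbols: 8 probes, 2 of them for Sox11 and 1 for each other gene, among 55681 probes on the array and 14536 named genes with a measurable signal. All 7 passed the filter on dim probes. The level of a gene is log2 of the background-subtracted intensity of its brightest probe minus the 75th percentile of the array, so that 0 is that percentile. Levels of different genes come from different probes and are not compared.

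In the injured nerve, these genes act at several steps. Transcription factors such as Atf3, Sox11 and Klf6 are induced in the cell body and change the neuron's programme towards growth. Gap43 and Stmn2 are carried to the growth cone, where Gap43, a membrane phosphoprotein, acts on the actin cortex and Stmn2, a stathmin, on microtubules. Sprr1a, a small proline-rich protein otherwise known from the cornified envelope of skin, and Ecel1, a membrane metallopeptidase of the neprilysin family, are low in intact adult sensory neurons and rise after axotomy.

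The samples were explants of dorsal root ganglia from C57BL/6J embryos at E13.5, whole pieces of tissue in which neurons lie among Schwann cells and other cells. They were grown on Matrigel in growth medium for 12 days and then in a medium that lets Schwann cells form myelin. Total RNA was taken at day 0, before the change of medium, at day 10, an early stage of myelination, and at day 22, when mature sheaths were abundant. All samples carry the same strain and the treatment label control, and the time spent in culture and the time in myelination medium cannot be told apart. Each day had 3 batches of ganglia, which per the design text came from separate embryo pools gathered on separate occasions, although the sample titles call them mice. Each batch had 2 technical arrays, giving 6 arrays per day and 18 in all.

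On these arrays, 54.8% to 61.5% of the spots were well above background, and the 75th percentile lay between 582 and 745 intensity units. The batch of an array depends on where it is read. In the value table that the authors deposited, 12 of the 18 columns hold the values of another sample's array of the same day (rank correlation of 1 with that array and at most 0.975 with any other). The day of each array is the same in both sources. Changes between days were therefore tested with limma on the means of each batch and day under both placements, and the words rose and fell are kept for genes whose Benjamini-Hochberg adjusted p over 22852 features was under 0.05 with both. Where 2 adjusted p-values are given, the first is with the batches of the array files and the second with those of the value table; a standard error (SE) is with the first. One day 0 array stood apart, with a mean of 16 pan-neuronal markers of 3.15 against 3.95 to 4.16 on the other 5 arrays of that day, and values without it are given where it matters. All 16 pan-neuronal markers and all 10 Schwann cell markers passed the filter.

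The 7 genes did not all move one way. Sprr1a rose throughout, Ecel1 fell from day 0 to day 10, and Gap43 fell from day 0 to day 22. Stmn2, Atf3, Klf6 and Sox11 passed the test with both placements in no comparison. From day 0 to day 10, 1 of the 7 genes rose (5.72% of all features did) and 1 fell (7.66% of all features did). From day 10 to day 22, 1 of the 7 rose (background 0.477%) and none fell (background 1.39%), with 1 of 7 lower at an unadjusted p under 0.05 in limma with either placement. Over the whole interval 1 of 7 rose (background 12.6%) and 1 fell (background 18.4%). With 7 genes, each of these counts is a single gene. With the array files' batches alone, the counts higher and lower were 1 and 1 from day 0 to day 10 (background 11.3% and 17.7%), 2 and 0 from day 10 to day 22 (4.24% and 5.32%), and 2 and 1 from day 0 to day 22 (17.1% and 27.1%). With the value table's batches alone they were 1 and 1 (5.85% and 7.89%), 1 and 0 (0.512% and 1.42%), and 1 and 1 (13.0% and 19.0%) in the same order. The median change of the 7 genes was -0.12, 0.33 and 0.10 in the 3 comparisons, where that of all features was -0.06, -0.02 and -0.08.

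**Figure D1:**
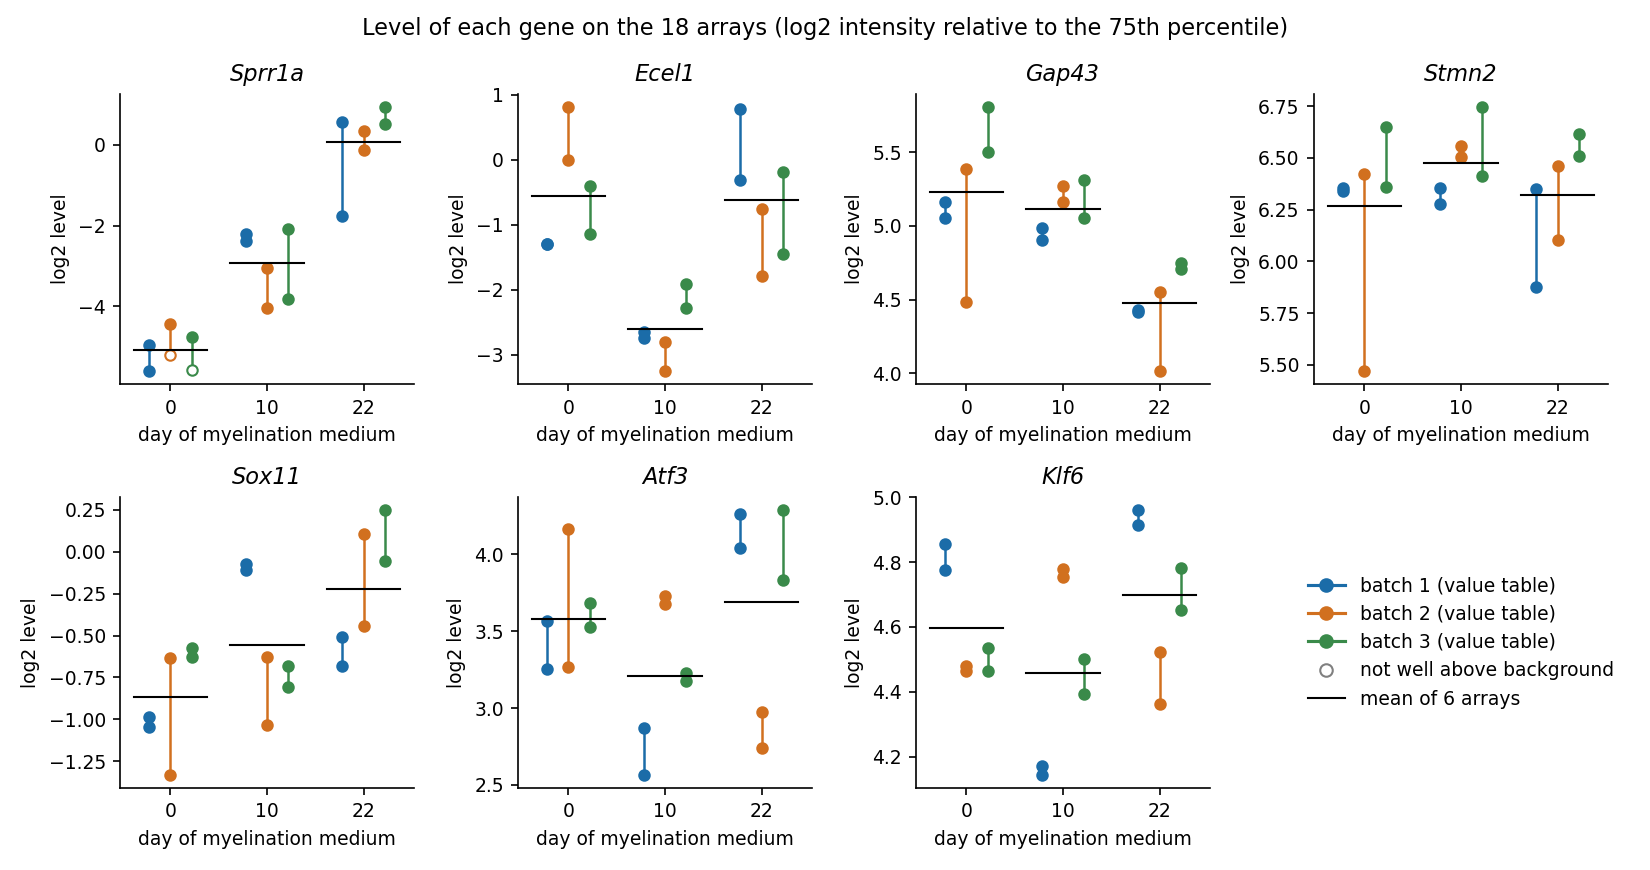
Each point is 1 array, with the log2 level relative to the array's 75th percentile on the vertical axis and the day on the horizontal axis; lines join the 2 technical arrays of a batch as the value table gives them, open points were not well above background, and black bars are means of 6 arrays. Sprr1a climbs with no overlap between days (medians -5.08, -2.71 and 0.42), Ecel1 dips at day 10 (median -2.69), and Gap43 is lowest at day 22 (median 4.49).

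For the 2 genes with the steepest changes, Sprr1a and Ecel1, the 250 bases before the annotated start are shown in RefSeq's GRCm38.p6 sequence, 5′ to 3′ on the gene's strand. Capitals mark matches to TGANTCA, the letters bound by AP-1 (dimers of Jun with Fos or ATF proteins), searched on both strands.
Sprr1a (chr3:92485882-92486131, minus strand): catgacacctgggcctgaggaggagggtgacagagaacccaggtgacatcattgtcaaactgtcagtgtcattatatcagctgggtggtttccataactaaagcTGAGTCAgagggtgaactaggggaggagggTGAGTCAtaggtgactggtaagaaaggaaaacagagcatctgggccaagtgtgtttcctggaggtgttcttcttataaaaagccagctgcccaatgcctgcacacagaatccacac
Ecel1 (chr1:87156357-87156606, minus strand): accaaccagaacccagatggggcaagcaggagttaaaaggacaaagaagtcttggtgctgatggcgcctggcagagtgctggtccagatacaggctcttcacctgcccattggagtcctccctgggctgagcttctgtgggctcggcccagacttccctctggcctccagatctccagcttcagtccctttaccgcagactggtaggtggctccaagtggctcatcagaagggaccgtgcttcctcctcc
The Sprr1a stretch held 2 matches, both reading TGAGTCA, with first bases 146 and 116 bases before the start, and a TATAAA 43 bases before it. At least 1 match to TGANTCA occurred in 6.75% of 32851 promoters of the same length, and 2 or more in 0.338% (111 promoters). The stretches of Ecel1, Atf3, Sox11 and Klf6 held none, and none of these 5 stretches held the CRE letters TGACGTCA, which 1.55% of promoters hold. A match is a string of letters and was not tested as a binding site here.

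Sprr1a, whose protein promotes axon outgrowth when neurons express it, showed the largest change among the 7. Its level ran from -5.60 to -4.43 on the 6 day 0 arrays (median -5.08), from -4.04 to -2.10 at day 10 (median -2.71) and from -1.78 to 0.94 at day 22 (median 0.42). Every day 10 array lay above every day 0 array, and every day 22 array above every day 10 array. The gene began close to the detection limit: 4 of 6 day 0 arrays were well above background, and all 12 later ones were.

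The rise of Sprr1a from day 0 to day 10 was 2.15 ± 0.42 on the log2 scale (SE, 3 batches per day; adjusted p = 0.00703 and 0.0130 in limma), or 4.45-fold. From day 10 to day 22 it rose by a further 3.00 ± 0.42 (adjusted p = 0.00599 and 0.0152 in limma), or 8.0-fold. The change over the whole interval was 5.15 ± 0.42, or 35.6-fold (adjusted p = 6.09e-05 and 0.000136 in limma). With slide as a block the 3 changes were 2.34, 2.84 and 5.17, on the 8 arrays of slide 1 alone 2.83, 2.86 and 5.68, and on the 8 arrays of slide 2 alone 2.04, 2.68 and 4.72. Its size moved with the background correction: with normexp on the median signals the changes were 0.96, 2.28 and 3.24, the last being 9.47-fold. The first step was no longer past the threshold on slide 2 alone (adjusted p = 0.104 in limma), with only the second technical arrays (0.149) or without day 10 batch 3 of the value table (0.0536). The second step was lost on slide 2 alone (0.241), with the second technical arrays (0.0951) or without day 10 batch 2 of the value table (0.0741). On slide 2 alone no feature passed in that step, and without that batch 1 of 22852 features was called higher and 7 lower. On slide 1 alone day 22 had arrays of batch 1 of the array files only, so no p-value is given for it.

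Sprr1a is made by keratinocytes and by other cells under stress as well as by neurons, and whole explants were measured. In bulk RNA, a change in the number of cells of a type and a change in RNA per cell cannot be told apart. Of 7 detected keratinocyte markers, none rose with both placements in limma from day 0 to day 22 (background 12.6%), and 1 was higher at an unadjusted p under 0.05 with either placement. That 1 was Perp, a desmosome gene that is also a p53 target, with a difference of 1.84 ± 0.44 (SE; adjusted p = 0.0105 and 0.0681), the largest of the 7. Krt1 and Krt10 fell, Krt10 by 0.40 on the log2 scale and Krt1 by a measured 1.66 to a day when 2 of 6 arrays were well above background. The mean of the 7 markers was -1.69, -1.81 and -1.92 on the 3 days, and Ivl, Krt6a and Dsg3 were too dim. Macrophage markers were counted in the same way. By day 22, 8 of 9 had risen over day 0 (background 12.6%), among them the lysozyme gene Lyz2 by 5.15. The mean of the 9 genes was 0.87 (-0.03 to 1.57) at day 0, 2.46 (1.74 to 3.08) at day 10 and 3.83 (2.82 to 4.75) at day 22. The part of keratinocytes, macrophages or other cells in the rise of Sprr1a was not tested. With day means removed, Sprr1a and the macrophage mean had r = -0.26 over the 18 arrays, and Sprr1a and the pan-neuronal mean r = 0.12, as descriptions of arrays that share batches.

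Of the other small proline-rich genes, which lie beside Sprr1a in the genome, 11 of 14 were too dim and 2 had no matched probe. The one that was measured, by a probe assigned to Sprr2a2 whose near-identical copies the probe may share, had a change of 0.05 from day 0 to day 22 and did not pass the test. That probe was very bright, with mean levels of 7.49, 7.53 and 7.54 on the 3 days. Whether its signal comes from Sprr2a2 was not tested.

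Ecel1 took another course. It lay between -1.30 and 0.81 at day 0 (median -0.78), between -3.25 and -1.92 at day 10 (median -2.69), and between -1.79 and 0.78 at day 22 (median -0.54). All 6 day 10 arrays lay below all 12 arrays of the other days, while days 0 and 22 overlapped. All 18 arrays were well above background.

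From day 0 to day 10, Ecel1 fell by 2.05 on the log2 scale (SE 0.19; adjusted p = 0.000456 and 0.0363 in limma), so that day 0 was 4.15-fold above day 10. The call was lost with a replicate block and the value table's batches together (adjusted p = 0.0608), with only the first or the second technical arrays (0.109 and 0.0570), and in 6 of the 9 fits that left out 1 batch of the value table (day 0 batches 2 and 3, each day 10 batch and day 22 batch 3; 0.0518 to 0.104). It held in every fit that left out 1 batch of the array files. The return from day 10 to day 22 was 1.99 ± 0.19, or 3.96-fold, with an adjusted p of 0.00187 with the array files' batches and 0.0968 with the value table's in limma, and so is not called. With the value table's batches the SE of the fall and of the return was 0.51. Between days 0 and 22 the difference was -0.07, with a 95% interval of -0.51 to 0.37 with the array files' batches and -1.24 to 1.11 with the value table's. The day 0 batch means were -1.30, 0.41 and -0.78 with the value table's batches and -0.24, -0.86 and -0.57 with the array files'.

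The day 0 array that stood apart also had the highest Ecel1 level of that day, 0.81, and without it the fall was -1.70 (adjusted p = 0.00225 in limma). With slide as a block the fall was -1.92, on slide 1 alone -2.0 and on slide 2 alone -1.53. The pan-neuronal mean was higher at day 10 (4.11) than at day 0 (3.88) or day 22 (3.64), opposite to Ecel1; without the array that stood apart the day 0 mean was 4.03 and the difference to day 10 was 0.076.

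Among the relatives of Ecel1, the metallopeptidases Ece1, Ece2, Mme and Phex were measured and Kel was too dim. None of the 4 fell in any comparison in limma, and 0 were lower at an unadjusted p under 0.05 with either placement. Phex rose by a measured 2.89 ± 0.55 (SE; adjusted p = 0.00614 and 0.0140 in limma) from day 0 to day 10, having been well above background on 2 of 6 day 0 arrays, and Mme, neprilysin itself, rose by 1.72 ± 0.31 (adjusted p = 0.00524 and 0.0358). Ece2 rose by 1.28 ± 0.09 from day 0 to day 22 (adjusted p = 3.32e-05 and 0.0101 in limma), with an SE of 0.28 with the value table's batches.

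**Figure D2:**
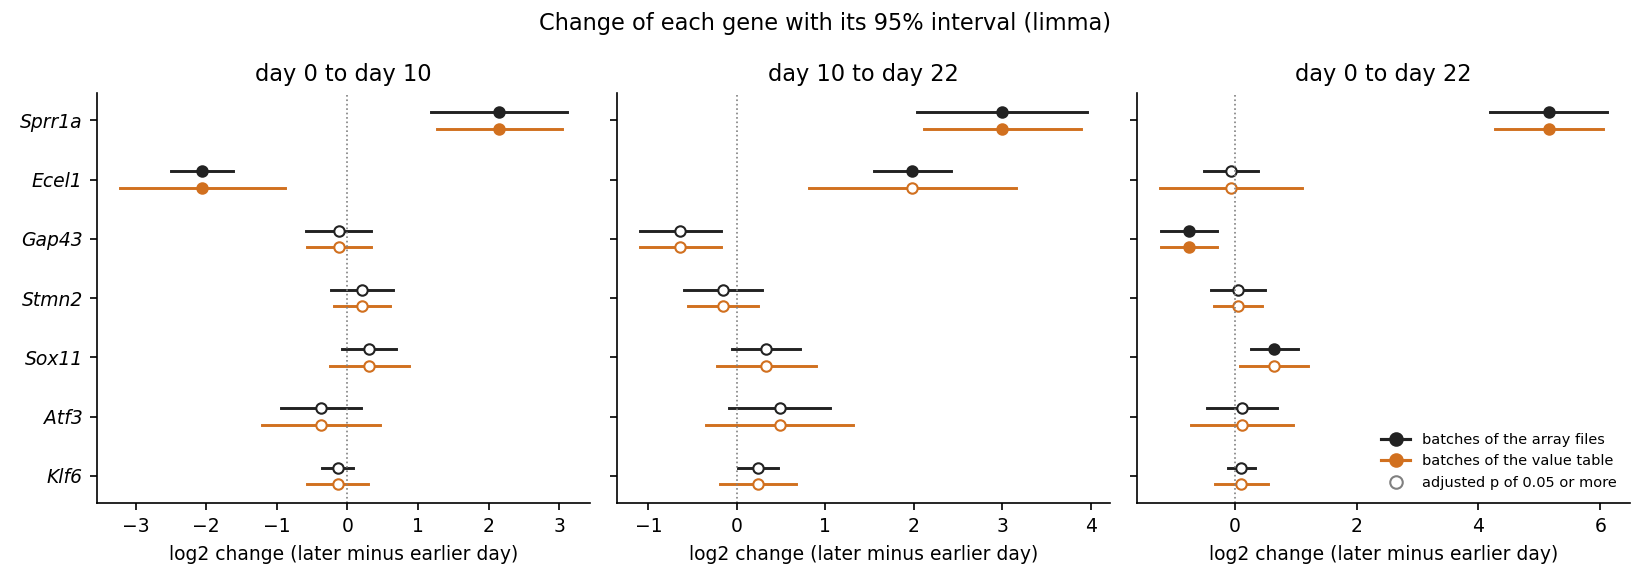
The log2 change of each gene (later minus earlier day) is shown with its 95% interval from limma for the 3 comparisons, in black with the batches of the array files and in orange with those of the value table; filled points had an adjusted p under 0.05. Sprr1a lies far to the right in all 3 panels (2.15, 3.00 and 5.15), Ecel1 has opposite signs in the first and second (-2.05 and 1.99), and the intervals of Ecel1, Atf3 and Klf6 are wider with the value table's batches.

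Gap43, the growth cone protein, ran from 4.48 to 5.81 at day 0 (median 5.27), from 4.91 to 5.31 at day 10 (median 5.11) and from 4.01 to 4.75 at day 22 (median 4.49). Every day 22 array lay below every day 10 array, and 3 of 6 lay below every day 0 array. The lowest day 0 value, 4.48, was that of the array that stood apart; the other 5 were above all day 22 arrays.

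Gap43 fell by 0.76 on the log2 scale from day 0 to day 22 (SE 0.20; adjusted p = 0.0159 and 0.0218 in limma), a 1.69-fold difference, and by 0.85 without the day 0 array that stood apart (adjusted p = 0.00357). With slide as a block the change was -0.79, and within slides 1 and 2 it was -1.07 and -0.78, not past the threshold on slide 2 (adjusted p = 0.0534 in limma). The call was also lost without day 0 batch 2 (0.0551) or 3 (0.0565) of the array files and without day 22 batch 1 (0.0571) or 2 (0.0678) of the value table. With only the second technical arrays it was lost too (0.119). So it was without array 1 of day 0 batch 1 of the array files (0.0728), which leaves that batch only the array that stood apart. From day 10 to day 22 the difference of -0.64 ± 0.20 had no overlap between arrays but adjusted p-values of 0.0844 and 0.148 in limma; a replicate block gave 0.0492 with the array files' batches and 0.0761 with the value table's, slide as a block gave 0.00595, and leaving out day 0 batch 1 of the array files gave 0.0283. Between days 0 and 10 it was -0.12, with a 95% interval of -0.58 to 0.34.

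Stmn2, the neuronal stathmin of growth cones, passed the test in no comparison. It ran from 5.47 to 6.65 at day 0 (median 6.36), from 6.28 to 6.75 at day 10 (median 6.46) and from 5.88 to 6.62 at day 22 (median 6.40), and the days overlapped. The difference between days 0 and 22 was 0.05, with a 95% interval of -0.39 to 0.50 with the array files' batches and -0.34 to 0.45 with the value table's. The difference between Gap43 and Stmn2 was not tested. Of the other stathmins, Stmn1 fell by 1.15 on the log2 scale (SE 0.14) and Stmn3 fell by 0.50 (SE 0.15) from day 0 to day 22, and Stmn4 did not pass the test.

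Across the arrays of a day, both growth cone genes were higher where the neuronal markers were higher. With day means removed, Stmn2 had r = 0.94 with the mean of the 16 pan-neuronal markers over the 18 arrays (0.89 without the day 0 array that stood apart), Gap43 r = 0.85 (0.72), and the pair r = 0.86 (0.72). The points share batches and slides, so these are descriptions. The pan-neuronal mean itself was 3.88 at day 0, 4.11 at day 10 and 3.64 at day 22. Of the 16 markers 1 rose (Thy1, by 1.17) and 3 fell (Rbfox3 by 1.13, Rtn1 by 0.81 and Elavl3 by 0.67) from day 0 to day 22, beside 12.6% and 18.4% of all features. Tubb3, neuronal tubulin, differed by 0.48, -0.25 and 0.23 in the 3 comparisons without passing the test in any.

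Subtracting the pan-neuronal mean on each array gives a level relative to the neuronal markers. On that scale Gap43 was 0.51 lower at day 22 than at day 0 (1.35 to 0.84), Stmn2 0.30 higher (2.38 to 2.68) and Sox11 0.89 higher (-4.75 to -3.86). For these 3 genes and Sprr1a all 3 batches of one day lay apart from those of the other with both placements, which makes 4 of the 7 genes against 20.1% of all features, and the two-sided exact permutation test gave p = 0.1, the smallest that 3 batches against 3 can give. Sprr1a was 5.40 higher at day 22 than at day 0. Atf3 (0.36 higher), Klf6 (0.35) and Ecel1 (0.18) overlapped between days 0 and 22, with exact permutation p-values from 0.2 to 0.7. Between days 0 and 10, 3 of the 7 lay apart in this way (Sprr1a, Gap43 and Ecel1, the last 2.28 lower at day 10), against 29.8% of all features. Between days 10 and 22, 5 of the 7 did (Sprr1a, Sox11, Stmn2, Ecel1 and Klf6), against 36.6%.

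**Figure D3:**
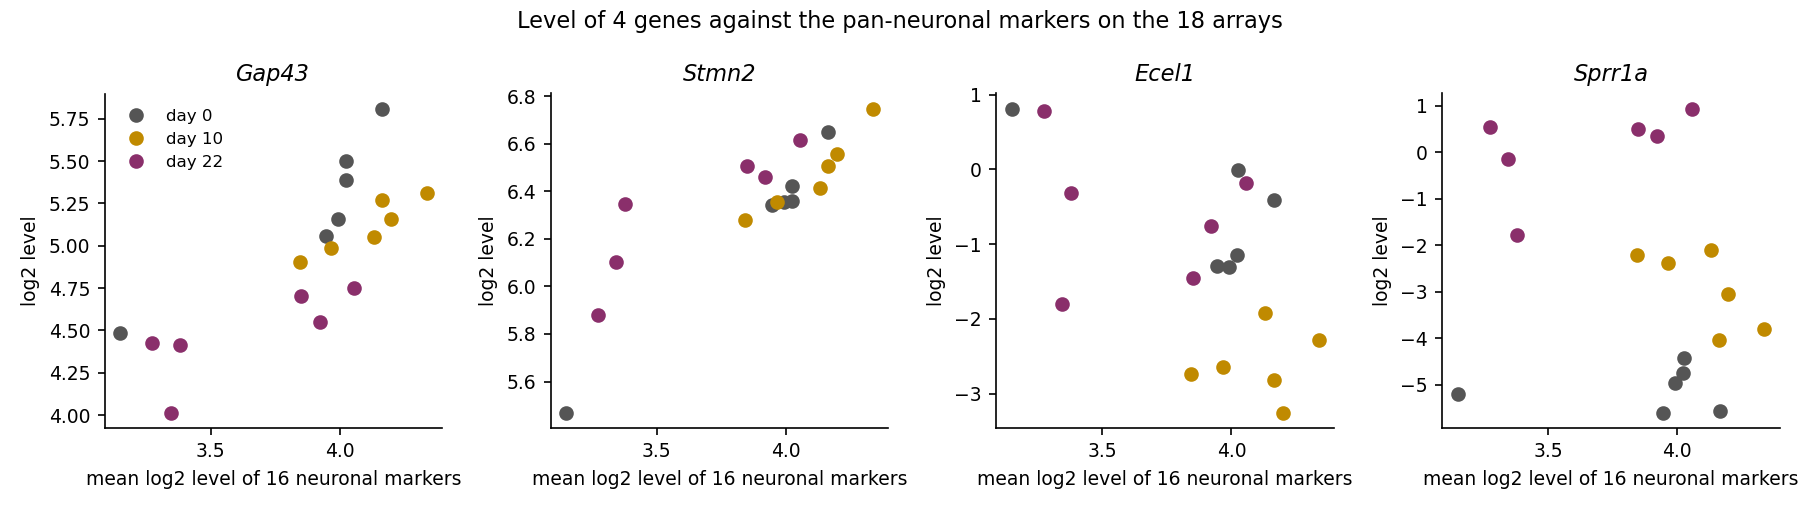
Each point is 1 of the 18 arrays, with the mean log2 level of the 16 pan-neuronal markers on the horizontal axis and the log2 level of the named gene on the vertical axis, coloured by day. Gap43 and Stmn2 rise with the neuronal mean inside each day (r = 0.85 and 0.94 with day means removed), the day 22 points of Gap43 lie low, Sprr1a separates by day, and Ecel1 is low at day 10; the lone day 0 point near 3.15 is the array that stood apart.

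Of the transcription factors, Atf3, a bZIP factor strongly induced in axotomised sensory neurons, ran from 3.26 to 4.16 at day 0 (median 3.55), from 2.57 to 3.73 at day 10 (median 3.20) and from 2.74 to 4.29 at day 22 (median 3.94). The days overlapped, and the spread at day 22 was the widest of the 3. Its differences in the first 10 days, from then to day 22 and over both were -0.37, 0.48 and 0.11, each with an SE of 0.25, with adjusted p-values from 0.260 to 0.834 in limma. The 95% interval of the last was -0.45 to 0.68, or -0.72 to 0.95 with the value table's batches.

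Klf6, a Krüppel-like factor that promotes axon growth, ran from 4.47 to 4.85 at day 0 (median 4.51), from 4.15 to 4.78 at day 10 (median 4.45) and from 4.36 to 4.96 at day 22 (median 4.72). Its differences in the same order were -0.14, 0.24 and 0.10, each with an SE of 0.10, and did not pass the test (adjusted p from 0.161 to 0.707 in limma). Of the 13 measured relatives of Klf6, none rose in limma from day 0 to day 22 (2 and 0 were higher at an unadjusted p under 0.05 with the array files' and the value table's batches) and 5 fell, beside 12.6% and 18.4% of all features. The largest falls on the log2 scale were those of Klf12 (by 0.93), Klf8 (by 0.85) and Klf16 (by 0.69).

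With the batches of the value table, Klf6 and Atf3 differed between batches of the same day more than between technical arrays (limma F test, adjusted p = 0.00888 and 0.0314; 8.74% of all features passed this test). At day 10 the 3 batch means of Klf6 were 4.16, 4.77 and 4.45, while technical arrays of a batch differed by 0.01 to 0.16 over the 3 days. For Atf3 the day 10 batch means were 2.72, 3.70 and 3.20, and at day 22 they were 4.15, 2.86 and 4.06. At day 0 its batch means lay closer together, at 3.41, 3.71 and 3.61, and the 2 arrays of batch 2 differed by 0.90. With the batches of the array files no feature (0.00%) passed that F test at an adjusted p under 0.05 (1829 of 22852 at an unadjusted p under 0.05), and Klf6 and Atf3 had adjusted p-values of 0.9998 and 0.987.

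**Figure D4:**
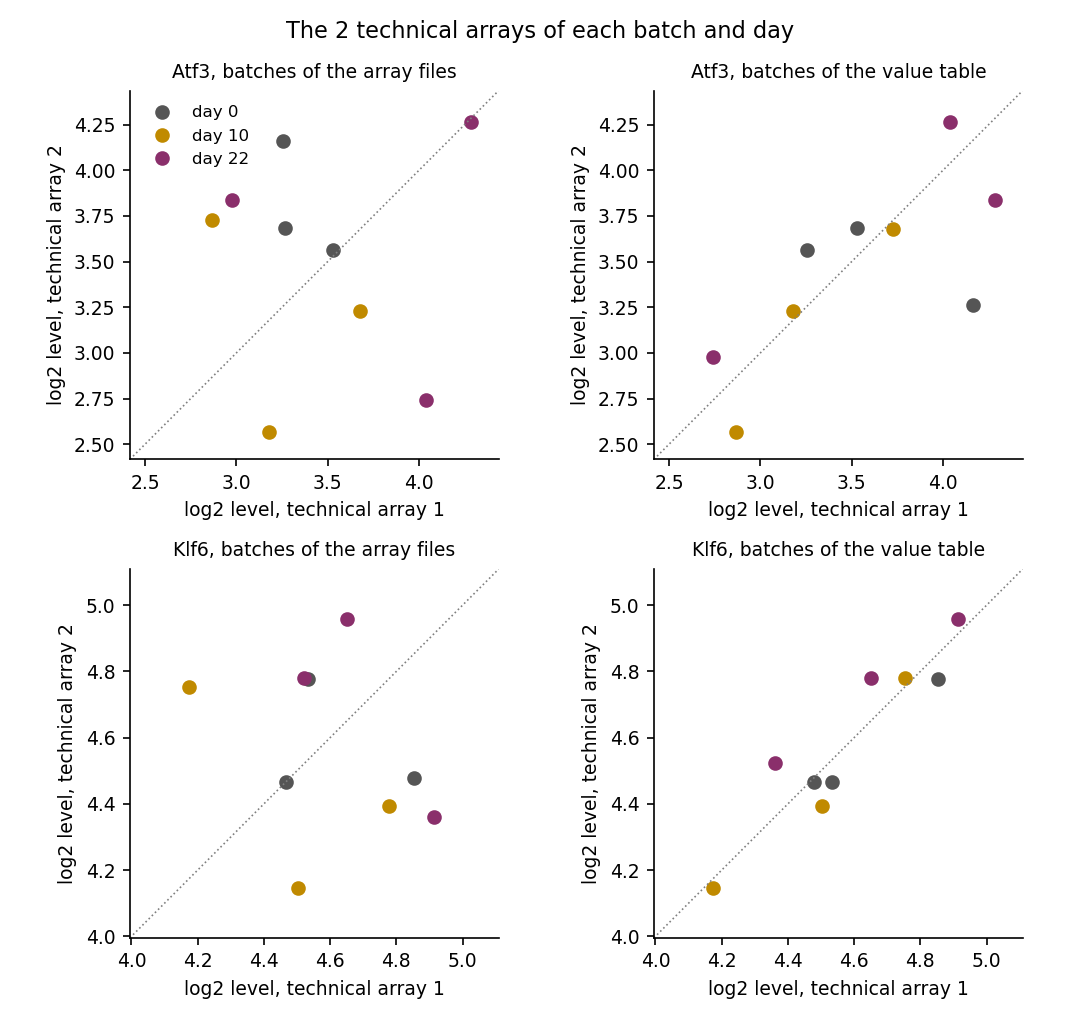
Each point is 1 batch and day, with the log2 level on technical array 1 on the horizontal axis and on technical array 2 on the vertical axis, for Atf3 (top) and Klf6 (bottom); the dotted line marks equal levels. With the value table's batches (right) the points of Klf6 lie within 0.16 of the line, and with the array files' batches (left) they scatter across it for both genes. On the right, the Atf3 point of day 0 batch 2 has levels 0.90 apart.

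Across the arrays of a day, Atf3 was higher where Klf6 was higher: with day means removed r was 0.65 over the 18 arrays (0.74 without the day 0 array that stood apart). Each was also higher where the mean of 10 other targets of the integrated stress response, the pathway in which Atf4 induces genes such as Ddit3 and Trib3, was higher, with r = 0.69 for Atf3 and 0.68 for Klf6. With the mean of the 9 detected immediate early genes r was -0.09 for Atf3 and 0.39 for Klf6. These are descriptions across arrays that share batches, slides and RNA, and the part of stress in the 2 levels was not tested. Of the 10 stress response targets, 2 rose (Nupr1 by 2.58 and Cebpb by 0.56) and 2 fell (Asns by 0.56 and Sesn2 by 0.39) from day 0 to day 22, beside 12.6% and 18.4% of all features. Of the 6 measured ATF relatives, Atf1 fell by 0.39 and Atf2 by 0.28 from day 0 to day 10, and none passed with both placements in limma from day 0 to day 22. With the array files' batches alone 1 was higher (Atf6) and 2 lower (Jdp2 and Atf2) at an adjusted p under 0.05; with the value table's 1 was lower at an unadjusted p under 0.05.

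Sox11, a SoxC factor of young and regrowing neurons, ran from -1.33 to -0.57 at day 0 (median -0.81), from -1.03 to -0.07 at day 10 (median -0.65) and from -0.68 to 0.25 at day 22 (median -0.25). At day 22, 5 of 6 arrays lay above every day 0 array. Its difference from day 0 to day 22 was 0.64 ± 0.17 (SE), with an adjusted p of 0.0144 with the array files' batches and 0.0751 with the value table's in limma, and so is not called. With the array files' batches, the other Sox11 probe gave 0.70 over the same interval (adjusted p = 0.00448 in limma). From day 0 to day 10 that probe gave 0.50 (adjusted p = 0.0294), where the brightest probe gave 0.31 (0.202). That probe was not fitted with the value table's batches and is not called. Its close relative Sox12 fell by 0.68 in the first 10 days and by 1.30 over all 22 (SE 0.18; adjusted p = 0.000642 and 0.000268 in limma), and Sox4 did not pass the test with both placements.

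Other genes of the same programme were read as lists. Of 13 other regeneration-associated transcription factors, 1 rose and 2 fell from day 0 to day 22, beside 12.6% and 18.4% of all features. Their median change was -0.09. Cebpb rose by 0.56, Myc fell by 0.66 and Smad1 fell by 0.44, while Hif1a rose by 0.36 from day 0 to day 10. Jun, the AP-1 partner of Atf3, differed by -0.09, 0.04 and -0.06 in the 3 comparisons and passed the test in none.

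Among other genes induced in injured sensory neurons, more rose than fell, on a list chosen with earlier results of these data known. Of 23 listed, 16 were measured. Of these, 4 rose in the first 10 days (background 5.72%), 1 from day 10 to day 22 (0.477%) and 8 over all 22 days (12.6%). Over the whole interval there was 1 fall (Sema6a, by 0.72; background 18.4%) and a median change of 0.76. Npy, Vip, Gpr151, Csrp3, Cckbr, Mmp16 and Ankrd1 were too dim. The neuropeptide gene Nts was well above background on no day 0 array and on all 6 day 10 arrays. It was at least 3.32-fold higher at day 10, a bound taken against the lowest signals well above background on the day 0 arrays. The limma test (adjusted p = 0.00307 and 0.000902) was of the measured log2 change of 2.71, not of that bound. Nts passed the filter only through day 10 and is among the 4 and the 8 genes counted above. The small heat shock gene Hspb1 rose by 1.36 to day 10 and by 2.08 to day 22, the peptide gene Gal by 1.1 to day 22, and Csf1 by 0.81 from day 10 to day 22. Arg1 (by 2.27), Il6 (by 2.75, well above background on 4 of 6 day 0 arrays) and Plaur (by 2.44) also rose to day 22. Macrophages and other non-neuronal cells make these last genes too, and the macrophage markers given above rose over the same interval; their part was not tested.

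Of 18 genes of the growth cone and of axon outgrowth, 4 fell in the first 10 days (background 7.66%) and 11 over all 22 (18.4%), and the median change to day 22 was -0.90. None rose in any comparison in limma, with at most 1 higher at an unadjusted p under 0.05. The microtubule-binding gene Dcx, typical of immature neurons, fell by a measured 4.69 on the log2 scale (SE 0.27; adjusted p = 1.65e-05 and 0.000435 in limma), being well above background on 2 of 6 day 22 arrays. Crmp1 fell by 1.67, Dclk1 by 1.28, Ncam1 by 1.05 and Basp1, a membrane protein that resembles Gap43 in function, by 0.92. From day 10 to day 22 none passed with both placements in limma, with 7 lower using the array files' batches and 9 and 8 lower at an unadjusted p under 0.05 with the 2 placements. Of 10 genes that restrain axon growth, 2 rose and 2 fell from day 0 to day 22, beside 12.6% and 18.4% of all features. Socs3, an inhibitor of cytokine signalling, rose by 1.25, the calcium channel subunit gene Cacna2d2 fell by 2.55 and the Nogo receptor gene Rtn4r by 1.53.

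**Figure D5:**
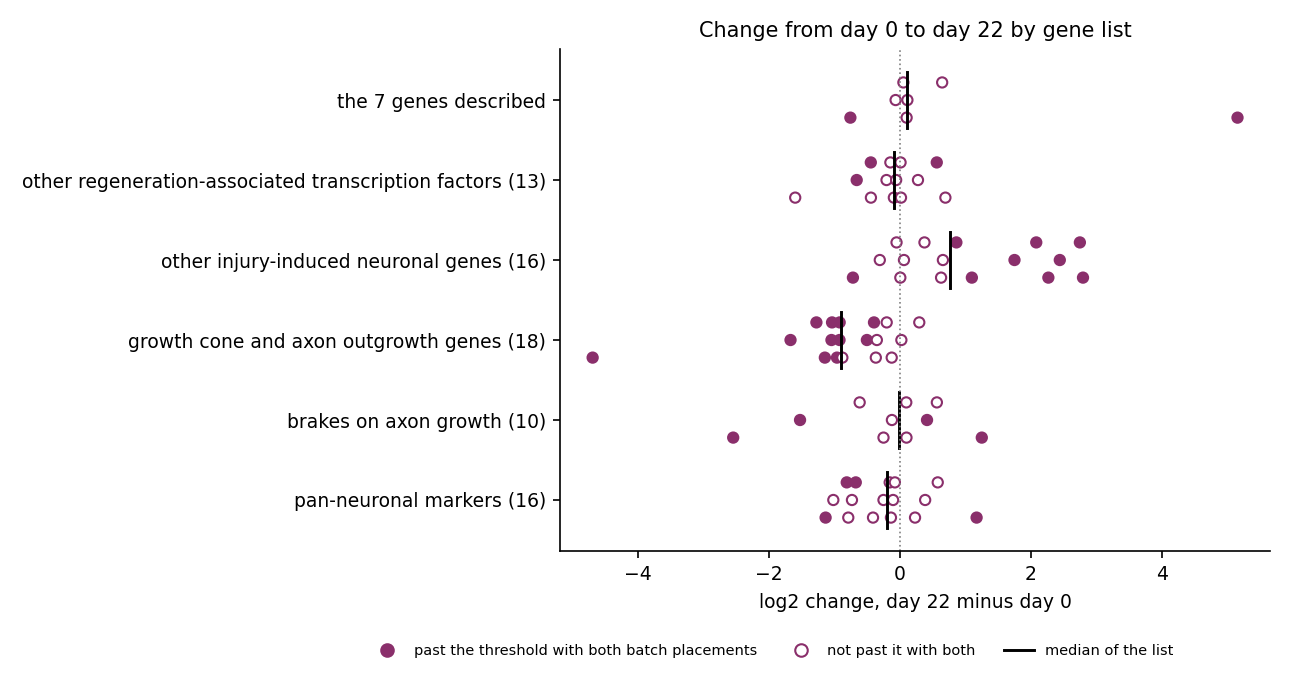
Each point is 1 gene, placed by its log2 change from day 0 to day 22 on the horizontal axis, with gene lists in rows and the number of measured genes in brackets; filled points passed the test with both batch placements, vertical offsets only separate points, and black lines are list medians. The 7 genes described here spread around 0 with Sprr1a far to the right (5.15), the other injury-induced genes lie mostly to the right (median 0.76), and the growth cone genes mostly to the left (median -0.90).

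Markers of the other cell types were counted from day 0 to day 22, when 12.6% of all features rose and 18.4% fell. Of 10 Schwann cell markers 2 rose and 2 fell, of 5 satellite glia markers 2 rose and 1 fell, of 8 fibroblast markers 1 rose and 3 fell, and of 5 endothelial markers 1 rose and 1 fell. Of 9 immediate early genes 1 rose and 1 fell. All 7 detected markers of dividing cells fell, Mki67 by 3.25. The part of these shifts in the changes of the 7 genes was not tested.

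Among 14515 other named genes, those whose level across the 18 arrays was most like that of Sprr1a were Slc22a4, Il4ra and Niban2 (Pearson r = 0.94 each). For Gap43 they were Jph3 (r = 0.98), Camk2n2 (0.97) and Adap1 (0.96), and for Stmn2 Rhof (0.96), Dlat (0.92) and Trim46 (0.92). For Sox11 they were Slk (0.84), Cd24a (0.83) and Mtus2 (0.83). For Ecel1 the nearest, Inafm1, reached 0.89, for Atf3 the nearest, Ahnak, 0.80 and for Klf6 the nearest, Noxo1, 0.78. These correlations hold the differences between days, which all arrays of a day share.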

How the data were processed

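Levels were measured on 18 one-colour (Cy3) Agilent arrays, 2 technical arrays for each of 3 batches on each of 3 days. Per the file headers, the authors read spot intensity with Feature Extraction 10.7.1.1, written as 10.7.1 in the submitters' processing notes, on a design annotated on mm9; that software had subtracted background from the intensity used. The deposited value table holds intensity on a linear scale and ranks probes as the arrays do; its 18 columns share 1 set of sorted values (median 33.7), as quantile normalization leaves them, and the method is not given in the sources used here. It served to place arrays in batches and as an alternative. From the intensities, control spots and outlier spots (93 to 181 per array) were left out, log2 taken, the array's 75th percentile subtracted and spots of a probe averaged. Probes were named through RefSeq (26576 of 55681) and kept (30429 probes) if some day had all 6 of its arrays well above background, with the brightest probe per gene. Technical arrays were averaged, and the 9 batch means were fitted with limma 3.58.1 (R 4.3.3), day as group, Benjamini-Hochberg adjustment. Precision is limited by the number of batches, 3 per day. The test was checked on simulated data.

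The design text gives batches from separate pools and the titles number them as mice, with the same numbers on every day. The main fit did not pair the days, and only the replicate block, an alternative named below, paired them by number. Correlations of same-numbered batches ran from -0.13 to 0.37 (6 of 9 above 0.1) with the array files' placement and from -0.08 to 0.46 (8 of 9) with the value table's. Technical arrays correlated from -0.55 to 0.23 (3 of 9 above 0) and from -0.16 to 0.48 (7 of 9) after group means were removed. In the value table's placement, technical number and slide nearly coincide. Alternatives were both placements, a replicate block, normexp (on median signals, since the mean signal named for it is not a column used here), quantile normalization, the deposited values, no filter, mean over probes, 18 arrays with a random batch, slide, 1 technical array, and leaving out each batch or array. Named genes were the 7, the 3 largest calls per list and comparison, the 3 most alike per gene, Tubb3 and Jun; other genes named in the lists were added after their values were seen, and some genes the rule names are not reported here. The 7 genes and the lists were chosen with earlier results of these data known.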

Additional observations from a re-analysis of the deposited data

Results flagged for a closer look

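In 2 of 24 sets of 6 arrays, 1 array lay farther from the rest than Dixon's 95% limit allows, where chance gives about 1 in 20. Both were the same day 0 array: its Stmn2 level was 5.47 (next 6.34), and its mean of the pan-neuronal markers was 3.15 (next 3.95). On that array Gap43 was 4.48, Atf3 4.16 and Ecel1 0.81. The array is batch 1 of day 0 in the array files and batch 2 in the value table.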

How the results depend on the processing

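Beside the array files' batches, 14 kinds of other processing and 36 fits that each left out 1 batch or array were run. The change of Sprr1a from day 0 to day 22 was 3.24 to 5.68 in all 50. It passed in each, leaving aside slide 1 alone, where day 22 had arrays of a single batch. The count of the 7 genes higher from day 0 to day 10 was 1, and 0 on slide 2 or with second technical arrays (0 to 1 with a batch or array left out); the count lower was 1, and 0 with a replicate block on the value table's batches or with either technical array alone (0 to 1). From day 10 to day 22, 2 were higher. The count was 1 with the value table's batches, with a replicate block on them, with the authors' deposited values or with first technical arrays. It was 0 on slide 2, where no feature passed, or with second technical arrays (0 to 2). None was lower then, and 1 with a replicate block, 18 arrays with a random batch or slide as a block (0 to 1). From day 0 to day 22, 2 were higher. That count was 1 with the value table's batches, a replicate block on them, the deposited values, slide 2 or either technical array (1 to 2). Over the same interval 1 was lower, and 0 on slide 2 or with second technical arrays (0 to 1). Slide 1 alone is left out of the counts to day 22. Batches within days differed for 0 genes with the array files' batches and 2 with the value table's.

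Small differences that were not called changed sign. From day 0 to day 10, Gap43 was 0.12 and Stmn2 -0.030 and Jun 0.047 with 1 technical array per batch. From day 10 to day 22, Jun was -0.077 on slide 1. From day 0 to day 22, slide 1 gave Atf3 -0.23, Stmn2 -0.29 and Tubb3 -0.16, technical arrays alone gave Atf3 -0.19, Stmn2 -0.19, Ecel1 0.087 and Jun 0.084, and Ecel1 was 0.011 with slide as a block and 0.40 on slide 2. With a batch or array left out, the ranges were -0.35 to 0.093 (Gap43), -0.29 to 0.011 (Klf6) and -0.30 to 0.087 (Jun) from day 0 to day 10, -0.28 to 0.0071 (Stmn2) and -0.046 to 0.15 (Jun) from day 10 to day 22, and -0.18 to 0.53 (Atf3), -0.13 to 0.22 (Stmn2), -0.49 to 0.41 (Ecel1), -0.017 to 0.23 (Klf6) and -0.26 to 0.12 (Jun) from day 0 to day 22. The causes were not tested.

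Over all features, the array files' batches gave 2588 higher and 4056 lower calls in the first 10 days, against 1337 and 1802 with the value table's. Between days 10 and 22 the calls were 970 and 1215 against 117 and 324, and over all 22 days 3909 and 6186 against 2975 and 4347. Technical arrays of a batch were more alike with the value table's placement, with r above 0 in 7 of 9 pairs against 3 of 9. With that placement 1998 features passed the F test between batches of a day, against 0 with the array files'. No source used here states which placement is right, and both are given. An SE reflects the spread between batches only if its placement is right. With the value table's batches and the array files' it was 0.51 and 0.19 for Ecel1, and 0.36 and 0.25 for Atf3. For Klf6 it was 0.19 and 0.10, and for Sox11 0.24 and 0.17. It differed less for Sprr1a (0.39 and 0.42), Gap43 (0.20 with each) and Stmn2 (0.17 and 0.19). Sprr1a at day 0 is near the background, and the size of its change rests on how background is subtracted. Slide 3 held no day 10 array, and the day 22 arrays of slide 1 were all of batch 1 in the array files.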
